A study of Homo sapiens with 8 samples.

Results

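Glycosylphosphatidylinositol (GPI) is a glycolipid that holds many proteins on the outside of the cell. The 28 genes described here build the anchor, join it to proteins and trim it afterwards. They were chosen by name from the 60664 genes of the count tables: the PIG genes with a single closing letter apart from PIGR, the PGAP genes with a single closing digit, GPAA1 and MPPE1. The naming rule itself uses no measured value, but it was set with earlier results of these data known. The measurements come from HEK293T cells, a line from human embryonic kidney, that express APEX2. This peroxidase puts biotin on RNA close to it while cells are alive, so that the RNA can be captured and sequenced. APEX2 was placed either inside the nucleus (NLS) or on the outer membrane of mitochondria (OMM), and each site had 2 labelled libraries and 2 unlabelled controls. The OMM libraries were made from poly(A) RNA with a TruSeq kit and the NLS libraries, titled ribominus, with a SMARTer total RNA kit, so site, kit and RNA selection cannot be told apart. The release of captured RNA, given in the series text as Proteinase K for NLS and TRIzol for OMM, would differ between the sites in the same way. The OMM libraries are titled trizol. All groups share the same cell line and express APEX2. The controls hold what the capture recovers with no label and are no measure of whole-cell RNA. Nothing in the sources used here tells whether replicate libraries came from different cultures, so p-values cover the spread among these 8 libraries alone, and that spread may be technical.

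The anchor is made on the membrane of the endoplasmic reticulum (ER). N-acetylglucosamine (GlcNAc) is put onto phosphatidylinositol, the acetyl group is removed, the inositol is acylated, and mannoses and ethanolamine phosphates are added in turn. A transamidase then cuts the C-terminal signal of a protein and attaches the finished anchor, and enzymes of the ER, the Golgi and the cell surface remodel it before and after export. Most of these proteins span membranes of the secretory route, and mRNAs for such proteins are commonly translated at the ER, whose membrane lies in contact with mitochondria in places.

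The labelled NLS libraries held 9531568 and 8039176 counts and their controls 20746393 and 21096586. The labelled OMM libraries held 52421161 and 34705126 counts and their controls 41660431 and 35165227. The spread between libraries was much wider at OMM: the biological coefficient of variation estimated by edgeR was 0.958 there, against 0.166 at NLS. Levels are given as CPM, which are counts scaled by the library total and by the TMM factor of edgeR. Of the 4 nuclear RNAs listed as a check, summed levels were 7600 to 8692 CPM in labelled NLS libraries and 1267 to 1350 CPM in their controls. The 13 mRNAs of mitochondrial DNA summed to 10813 to 14764 CPM in labelled OMM libraries and 39381 to 71119 CPM in their controls, and to 5469 to 5773 CPM in labelled NLS libraries and 33592 to 45718 CPM in their controls. All 7 markers of the HEK293T lineage were detected, at a summed 167 to 203 CPM in labelled NLS libraries and 610 to 677 CPM in their controls. The 10 markers of other cell types summed to at most 5.60 CPM in any library, with 6 of them at 0 in both labelled NLS libraries and 8 at 0 in both labelled OMM libraries. The part of these shifts in the results below was not tested.

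With APEX2 in the nucleus, 8 of the 28 genes were higher and 12 lower in labelled libraries than in controls, and 8 did not pass the test (edgeR quasi-likelihood F test, Benjamini-Hochberg adjusted over 20858 genes, threshold 0.05). Over all genes tested, 28.8% were called higher and 28.5% lower. Over the 13856 protein-coding genes alone the shares were 19.4% higher and 39.8% lower, so the 28.6% of members called higher and 42.9% called lower lie near these background shares. The median log2 fold change of the members was -0.11, against 0.14 for all genes and -0.26 for protein-coding genes. The split depended on the scaling of the libraries: scaled by library size alone, which moved the median of all genes up by 0.52 on the log2 scale, 13 members were called higher and 3 lower, and PIGC, PIGH, PIGW, PIGM, PIGX, PIGS, PIGU, PGAP6 and GPAA1 lost their calls. Calls also depended on single libraries: without labelled library 1 the number lower was 6, with PIGC, PIGH, PIGP, PIGM, PIGX, GPAA1 and PIGU losing their calls, and without labelled library 3 PIGC, PIGP, PIGX, GPAA1, PIGU and PGAP1 lost theirs. Both labelled libraries lay above both controls for 12 members, against 45.1% of all genes, and below both controls for 13, against 37.7%. CPM values are shares of a library, so fewer molecules of an RNA and more of all others cannot be told apart, nor can fewer cells from less RNA per cell.

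With APEX2 at the outer mitochondrial membrane, PIGK, the protease subunit of the transamidase, was the 1 member called higher among 27 tested, and no member was called lower. Of the 14438 genes tested there, 0.139% were called higher and 0.0554% lower. At an unadjusted p under 0.05, 3 members were higher and none lower, against 5.94% of all genes higher and 4.62% lower at that cut. In the authors' deposited table PIGK, PIGM and PIGN were higher at an adjusted p under 0.05 and none was lower, where 6.53% of all genes were higher and 5.70% lower by DESeq2. The median log2 fold change of the members was 0.38, against -0.0017 for all genes. Fold changes were positive for 19 members and negative for 8, against 49.9% of all genes positive and 50.1% negative. Both labelled libraries lay above both controls for 10 members, against 21.3% of all genes, and below both controls for PIGH and PGAP6, against 22.5%.

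**Figure D1:**
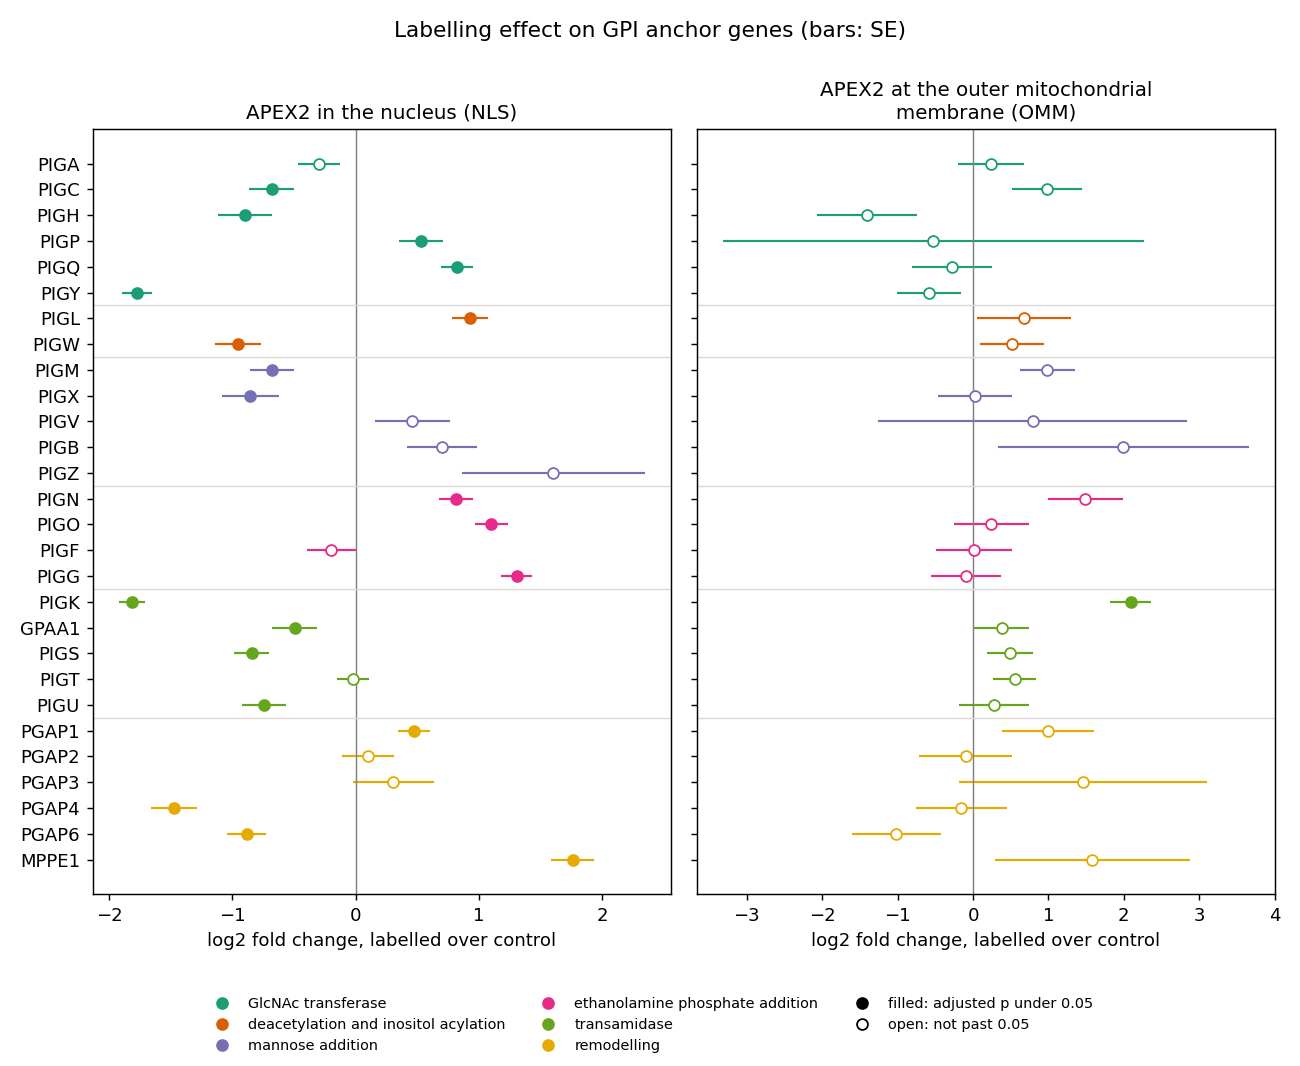
Log2 fold change of labelled over control for each gene at NLS (left) and OMM (right), with bars of 1 standard error (SE) and colours by step of the pathway; filled points passed an adjusted p of 0.05 in edgeR. PIGK has the lowest value at NLS (-1.81) and the highest at OMM (2.09), and PIGZ was not tested at OMM.

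The first step is run by GPI-GlcNAc transferase, whose catalytic subunit is PIGA and whose other listed subunits are PIGC, PIGH, PIGP, PIGQ and PIGY. At NLS 2 of the 6 rose, PIGP and PIGQ, and 3 fell, PIGC, PIGH and PIGY. Of all genes 28.8% were higher and 28.5% lower, and of protein-coding genes 19.4% and 39.8%. PIGQ stood at 52.3 and 51.5 CPM in labelled NLS libraries, against 28.0 and 30.6 CPM in controls. The groups did not overlap and the log2 fold change was 0.83 ± 0.13 (SE, n = 2 libraries per arm; edgeR adjusted p = 0.0011). PIGH stood at 10.3 and 12.4 CPM in labelled NLS libraries, against 18.7 and 23.3 CPM in controls, also without overlap (-0.90 ± 0.22, edgeR adjusted p = 0.0087). PIGC was lower by a smaller margin (-0.68 ± 0.18, edgeR adjusted p = 0.014) and PIGP higher (0.53 ± 0.18, edgeR adjusted p = 0.035). PIGP missed the threshold with either labelled library left out, and in the authors' deposited DESeq2 table (adjusted p = 0.097). PIGA, at 26.5 and 33.9 CPM in labelled and 40.0 and 34.0 CPM in control libraries, had a log2 fold change of -0.30 ± 0.17 that did not pass (edgeR adjusted p = 0.17).

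PIGY had the largest NLS difference of this step, but its value cannot be told apart from that of another gene. It stood at 31.3 and 27.2 CPM in labelled NLS libraries, against 99.1 and 101 CPM in controls, a log2 fold change of -1.77 ± 0.12 (edgeR adjusted p = 2.4e-05). Both labelled libraries lay far below both controls. The table gives PIGY and PYURF, the reading frame upstream of it on the same transcript, which encodes a mitochondrial protein, the same count in all 8 libraries, 19751 counts in total. In GENCODE 29 the coding part of PIGY, 71 codons, lies at bases 557 to 769 of the 1361-base PYURF transcript, after the PYURF coding part at bases 114 to 455. Reads from that transcript count for both genes, so the drop belongs to the transcript as a whole.

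At OMM none of the 6 transferase genes passed the test. PIGC stood at 38.6 and 60.2 CPM in labelled OMM libraries, against 28.0 and 22.0 CPM in controls (0.98 ± 0.46, edgeR adjusted p = 0.51). PIGH stood at 6.99 and 13.2 CPM in labelled OMM libraries, against 24.5 and 28.9 CPM in controls (-1.40 ± 0.66, edgeR adjusted p = 0.51). The groups did not overlap for either gene, which lay on opposite sides of 0. PIGP was listed at 0 and 565 counts in labelled OMM libraries and at 871 and 0 counts in controls, so it was missing from 1 library of each arm. A count of 0 allows up to 0.0567 CPM in that labelled library and 0.0847 CPM in that control, for counting error only.

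The next enzymes, PIGL, which removes the acetyl group from GlcNAc, and PIGW, which acylates the inositol, went opposite ways at NLS. PIGL stood at 44.4 and 46.6 CPM in labelled NLS libraries, against 25.5 and 22.2 CPM in controls (0.93 ± 0.14, edgeR adjusted p = 0.00099). PIGW stood at 17.7 and 22.1 CPM in labelled NLS libraries, against 34.2 and 42.8 CPM in controls (-0.96 ± 0.19, edgeR adjusted p = 0.0032). Neither pair of groups overlapped. At OMM their log2 fold changes were 0.67 ± 0.62 for PIGL and 0.52 ± 0.42 for PIGW, neither past the threshold.

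Mannose is added by PIGM with its partner PIGX, then by PIGV, PIGB and, on some anchors, PIGZ. At NLS 2 of these 5 fell, PIGM and PIGX, and none rose past the threshold. The share lower was 28.5% of all genes and 39.8% of protein-coding genes. PIGM stood at 27.1 and 37.1 CPM in labelled NLS libraries, against 55.2 and 47.3 CPM in controls (-0.68 ± 0.18, edgeR adjusted p = 0.012). At OMM it stood at 78.8 and 99.4 CPM in labelled libraries, against 37.8 and 52.1 CPM in controls, with a log2 fold change of 0.99 ± 0.36 that did not pass in edgeR (adjusted p = 0.37). The labelled libraries thus lay below both controls at NLS and above both controls at OMM. The authors' deposited table gives PIGM at OMM a log2 fold change of 0.99 and an adjusted p of 0.013. PIGX stood at 14.7 and 13.8 CPM in labelled NLS libraries, against 31.0 and 20.4 CPM in controls (-0.85 ± 0.23, edgeR adjusted p = 0.015). Its level at OMM, 26.5 and 33.3 CPM in labelled libraries and 24.7 and 33.9 CPM in controls, overlapped between arms.

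The later mannosyltransferases were sparse. PIGV, PIGB and PIGZ each lay above both controls in both labelled NLS libraries, with log2 fold changes of 0.46 ± 0.31, 0.70 ± 0.29 and 1.60 ± 0.74, and none passed the threshold. Fits with either NLS control left out called PIGB and PIGZ. Those fits keep 1 library in an arm and called more genes at NLS, so they add no support. PIGZ stood at 28 and 27 counts in labelled NLS libraries, against 8 and 22 counts in controls. At OMM PIGB stood at 17.3 and 10.2 CPM in labelled libraries, against 6.68 and 0.226 CPM in controls, and its 1.99 ± 1.66 on the log2 scale did not pass. PIGZ was listed at 0 in both labelled OMM libraries and at 79 and 0 counts in controls, and was filtered out before the OMM test.

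Ethanolamine phosphate is put on the mannoses by PIGN, PIGO and PIGG, and PIGF is the partner that PIGO and PIGG need. All 3 enzymes were higher at NLS and PIGF was not called, where 28.8% of all genes and 19.4% of protein-coding genes were higher. PIGG stood at 108 and 111 CPM in labelled NLS libraries, against 48.6 and 39.8 CPM in controls, a 2.48-fold difference (1.31 ± 0.13 on the log2 scale, edgeR adjusted p = 8.6e-05). PIGO stood at 51.0 and 55.7 CPM in labelled NLS libraries, against 25.02 and 24.6 CPM in controls (1.10 ± 0.13, edgeR adjusted p = 0.00026). PIGN stood at 51.5 and 60.4 CPM in labelled NLS libraries, against 30.1 and 33.5 CPM in controls (0.82 ± 0.14, edgeR adjusted p = 0.0017). In each case both labelled libraries lay above both controls. PIGF, at 19.7 and 26.2 CPM in labelled and 23.5 and 28.95 CPM in control libraries, overlapped (-0.20 ± 0.20, edgeR adjusted p = 0.43). The summed level of the 4 genes was 230.3 and 253 CPM in labelled NLS libraries, against 127.1 and 126.9 CPM in controls.

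At OMM the same 4 genes gave no call in edgeR. PIGN stood at 54.8 and 43.9 CPM in labelled OMM libraries, against 21.9 and 13.2 CPM in controls (1.49 ± 0.49, unadjusted p = 0.016 and adjusted p = 0.32 in edgeR). Both labelled libraries were above both controls, as at NLS. The authors' deposited table gives PIGN at OMM a log2 fold change of 1.504 and an adjusted p of 0.0040. PIGG stood at 28.5 and 34.4 CPM in labelled OMM libraries, against 29.5 and 37.7 CPM in controls, and the groups overlapped (-0.09 ± 0.46). PIGO and PIGF overlapped as well, at 0.24 ± 0.50 and 0.01 ± 0.50.

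**Figure D2:**
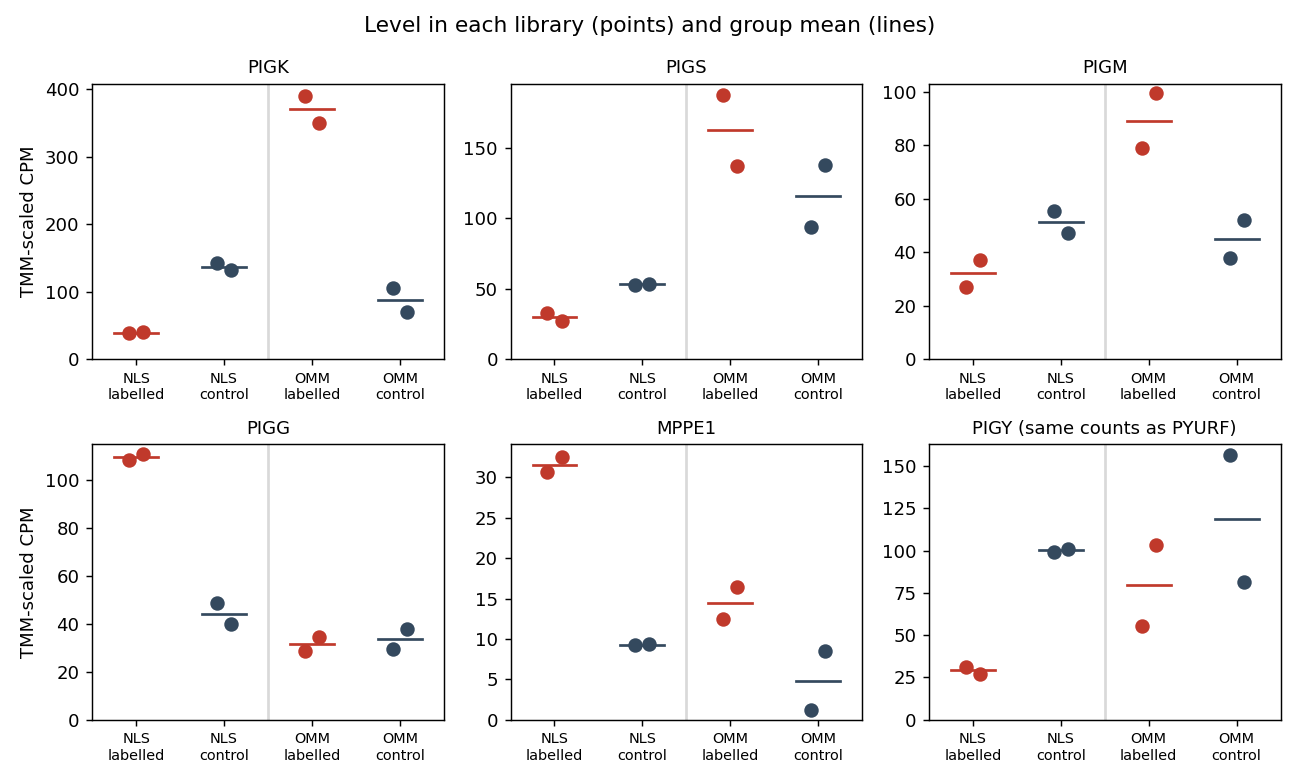
TMM-scaled CPM of PIGK, PIGS, PIGM, PIGG, MPPE1 and PIGY in each of the 8 libraries (points) with group means (lines), linear axes from 0. PIGK stands at 391 and 349 CPM in labelled OMM libraries, against 105 and 69.0 CPM in their controls, and at 38.3 and 39.8 CPM in labelled NLS libraries, against 142 and 132 CPM in theirs.

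The transamidase is the complex that joins anchor and protein. Its listed subunits are PIGK, a cysteine protease that makes the cut, PIGT, which holds PIGK by a disulfide bond, GPAA1, PIGS and PIGU. At NLS 4 of the 5 fell, all but PIGT, where 28.5% of all genes and 39.8% of protein-coding genes were lower. PIGK alone of these 4 kept its call with library size alone. PIGK stood at 38.3 and 39.8 CPM in labelled NLS libraries, against 142 and 132 CPM in controls, 3.51-fold lower (-1.81 ± 0.11, edgeR adjusted p = 1.9e-05). PIGK (ENSG00000142892) spans bases 77088990 to 77219430 on the minus strand of chromosome 1 in GRCh38, with its coding part in 11 exons. Its log2 fold change was the lowest of the 28 genes, and only 3.57% of all genes tested at NLS lay lower. PIGS stood at 32.4 and 26.8 CPM in labelled NLS libraries, against 53.0 and 53.4 CPM in controls (-0.84 ± 0.14, edgeR adjusted p = 0.0015).

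PIGU was lower at NLS by a like margin (-0.75 ± 0.18, edgeR adjusted p = 0.0084), at 13.7 and 14.3 CPM in labelled libraries and 24.6 and 22.4 CPM in controls. GPAA1 was just past the threshold (-0.49 ± 0.18, edgeR adjusted p = 0.049), at 30.9 and 24.9 CPM in labelled libraries and 34.3 and 44.6 CPM in controls. It missed the threshold in DESeq2 and with RLE scaling, and its sign turned, to 0.03, with library size alone. PIGT, at 79.6 and 74.4 CPM in labelled libraries and 86.1 and 70.3 CPM in controls, had a log2 fold change of -0.02 ± 0.13 (edgeR adjusted p = 0.90), which became 0.50 (edgeR adjusted p = 0.013) with library size alone.

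At OMM PIGK was higher by 4.26-fold (2.09 ± 0.27 on the log2 scale, edgeR adjusted p = 0.038). It averaged 370.0 ± 29.2 CPM in labelled OMM libraries and 86.9 ± 25.4 CPM in controls (SD, n = 2 each), on 20682 and 12671 counts in labelled libraries and 4080 and 2444 counts in controls. Both labelled libraries lay far above both controls, and 95.8% of all genes tested had a lower fold change. The call was lost in the non-robust fit (edgeR adjusted p = 0.075). It held with any 1 library left out. Those fits keep 1 library in an arm and called many more genes at OMM, so they add no support. The authors' deposited table gives PIGK 2.10 on the log2 scale and an adjusted p of 1.5e-16.

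The other 4 subunits all had positive fold changes at OMM and none passed the test. PIGS stood at 188 and 137 CPM in labelled OMM libraries, against 94.0 and 138 CPM in controls, and overlapped (0.49 ± 0.30). PIGT stood at 115 and 106 CPM in labelled OMM libraries, against 71.3 and 79.6 CPM in controls, without overlap (0.55 ± 0.29, edgeR adjusted p = 0.54). GPAA1 at 67.5 and 58.7 CPM in labelled libraries was above both controls at 47.1 and 49.8 CPM (0.38 ± 0.36), while PIGU overlapped (0.28 ± 0.46). The summed level of the 5 subunits was 808 and 685 CPM in labelled OMM libraries, against 344 and 375 CPM in controls. Without PIGK the sums were 417 and 336 CPM in labelled OMM libraries, against 239 and 306 CPM in controls.

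**Figure D3:**
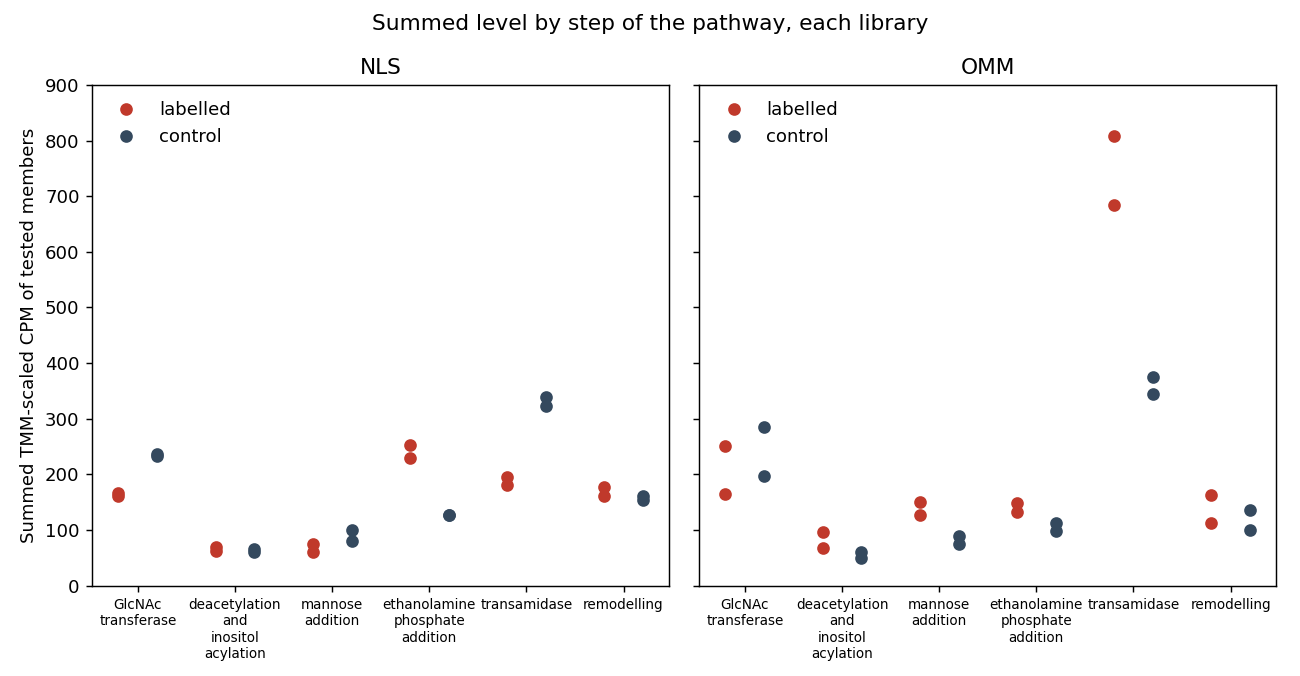
Summed TMM-scaled CPM of the tested members of each step in each library at NLS (left) and OMM (right), labelled libraries left of controls within a step. The transamidase shows the widest gap at OMM, 808 and 685 CPM in labelled libraries against 344 and 375 CPM in controls, and the opposite order at NLS, 195 and 180.2 CPM in labelled libraries against 340 and 323 CPM in controls.

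The 6 remodelling genes act once the anchor is on its protein. PGAP1 removes the acyl chain from inositol and MPPE1, also called PGAP5, takes off an ethanolamine phosphate. PGAP2 and PGAP3 exchange the fatty acid in the Golgi, PGAP4 adds a side-chain sugar there, and PGAP6 acts on the anchor at the cell surface. At NLS 2 of the 6 rose, MPPE1 and PGAP1, and 2 fell, PGAP4 and PGAP6. These counts lie near the shares of all genes, 28.8% higher and 28.5% lower (19.4% and 39.8% of protein-coding genes). MPPE1 stood at 30.7 and 32.5 CPM in labelled NLS libraries, against 9.25 and 9.33 CPM in controls, a 3.40-fold difference (1.76 ± 0.17, edgeR adjusted p = 9.5e-05). It was the highest log2 fold change of the 28 genes, and 78.8% of all genes tested lay lower. PGAP4 stood at 9.72 and 10.8 CPM in labelled NLS libraries, against 26.5 and 30.5 CPM in controls (-1.47 ± 0.19, edgeR adjusted p = 0.00035).

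PGAP6 was also lower at NLS, at 22.2 and 19.9 CPM in labelled libraries and 41.3 and 36.5 CPM in controls (-0.88 ± 0.16, edgeR adjusted p = 0.0019). PGAP1 was higher, at 75.5 and 93.1 CPM in labelled libraries and 63.1 and 58.0 CPM in controls (0.48 ± 0.13, edgeR adjusted p = 0.015). PGAP2 and PGAP3 did not pass, at 0.10 ± 0.21 and 0.31 ± 0.33. No remodelling gene was called at OMM, where PGAP6 had 23.2 and 10.9 CPM in labelled libraries, against 26.2 and 42.8 CPM in controls (-1.02 ± 0.59). MPPE1 had 12.5 and 16.5 CPM in labelled OMM libraries, against 1.16 and 8.50 CPM in controls (1.58 ± 1.29). PGAP1 rested on 1 library at OMM, with 22.4 and 76.8 CPM in labelled libraries and 25.4 and 24.5 CPM in controls.

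The labelling effects at the 2 sites were set against each other in a joint fit of all 8 libraries, as the OMM log2 fold change minus that at NLS. Of the 28 genes 2 (7.14%) had a higher effect at OMM, PIGK and PIGM, and 1 (3.57%) a lower effect, PIGG. Over all 23178 genes in that fit 6.73% were higher and 1.41% lower. Over protein-coding genes alone the shares were 10.5% and 1.49%. The difference was 3.92 ± 0.32 for PIGK (edgeR adjusted p = 0.0037), 1.69 ± 0.37 for PIGM (edgeR adjusted p = 0.042) and -1.38 ± 0.32 for PIGG (edgeR adjusted p = 0.047). The joint fit assumed the same spread per gene at both sites, though the biological coefficient of variation was 0.958 at OMM and 0.166 at NLS. For PIGG the SE of 0.32 is below the 0.46 of its OMM effect alone. The wider OMM spread may thus be understated in these p-values. Next in line, and not past the threshold, were PIGS at 1.36 ± 0.35 (edgeR adjusted p = 0.069) and PIGC at 1.69 ± 0.45 (edgeR adjusted p = 0.073). The difference for PIGK was 3.48 to 4.26 with RLE scaling, library size alone or any 1 library left out, the alternatives run for this comparison. Its adjusted p rose to 0.072 without NLS control 1 and 0.062 without NLS control 3, when no gene of the whole table was called. PIGM and PIGG each missed the threshold in 6 of the 8 fits that left out a library, and PIGM also with RLE scaling (adjusted p = 0.13) or library size alone (adjusted p = 0.18), which moved the median difference of all genes by -0.41 and -0.47. Some genes were called only with an OMM library left out. The effect at OMM was then higher for PIGS and PGAP3 without control 4, for PIGW and PIGB without control 3, for PIGC and PGAP4 without labelled library 2 and for PIGS without labelled library 3. It was lower for PIGZ, which has 0 counts in both labelled OMM libraries, without control 4 and for PIGQ without labelled library 2. The site coincides with the kit and the RNA selection, and the parts of these in the differences cannot be told apart.

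**Figure D4:**
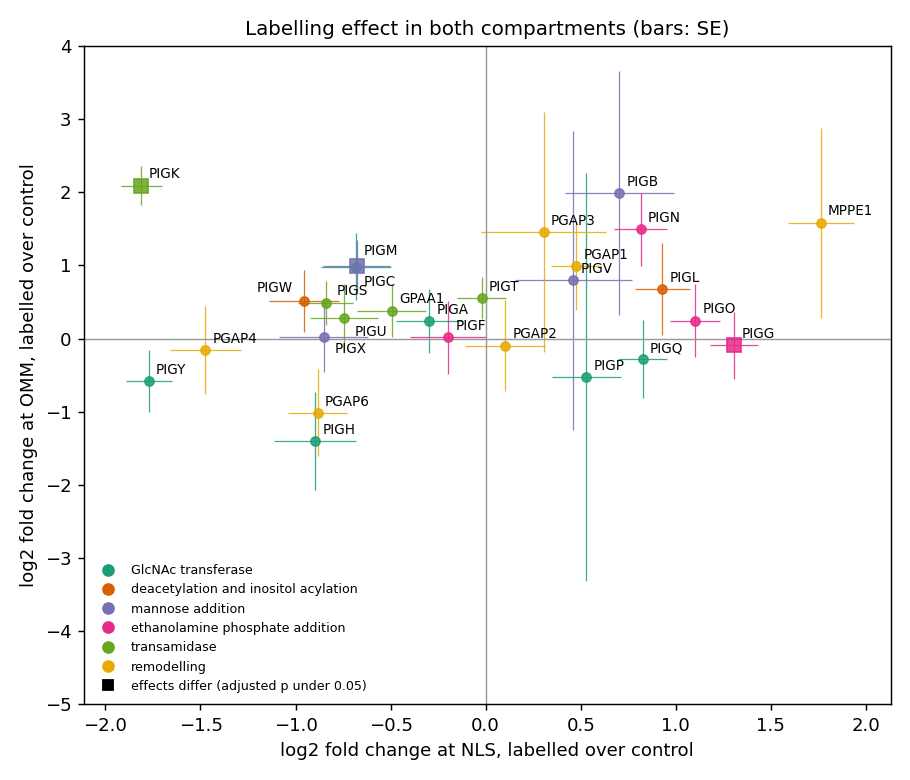
Log2 fold change of labelled over control at OMM (vertical) against NLS (horizontal) for the 27 genes tested at both sites, with SE bars; squares mark genes whose effects differed between sites in the joint fit. PIGK sits alone at the upper left (-1.81 at NLS, 2.09 at OMM), PIGM at -0.68 and 0.99, and PIGG at 1.31 and -0.09.

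Levels between genes were compared per kilobase of annotated exon, leaving out PIGY. PIGK led in labelled OMM libraries at 67.1 ± 5.30 CPM per kilobase (SD, n = 2), followed by PIGS at 27.2 ± 5.94, PIGW at 19.9 ± 2.85 and GPAA1 at 19.3 ± 1.91 CPM per kilobase. PIGK stood clear of PIGS, and PIGW and GPAA1 did not differ beyond their spread. In OMM controls PIGS at 19.3 ± 5.17 and PIGK at 15.8 ± 4.60 CPM per kilobase came first, and GPAA1 at 14.8 ± 0.595 and PIGW at 13.9 ± 4.23 lay within the range of PIGK. In labelled NLS libraries PIGG led at 10.0 ± 0.167 CPM per kilobase, followed by GPAA1 at 8.54 ± 1.30, and PIGK was at 7.08 ± 0.184. In NLS controls PIGK led again at 24.9 ± 1.197 CPM per kilobase, with PIGW next at 13.8 ± 2.19. PIGZ was lowest in all 4 groups. The order depends on the length used, since genes with many annotated transcripts, PIGT among them with 19670 exon bases, appear low on this scale. Per kilobase of the single coding transcript used for sequence, PIGK still led in labelled OMM libraries (80.5 CPM per kilobase, with PIGS at 56.5). On that scale PIGL (40.0), PIGT (34.3) and PIGG (34.2) led in labelled NLS libraries, PIGS (40.3) and PIGT (33.6) in OMM controls, where PIGK stood at 18.9, and PIGT (34.8) and PIGK (29.8) in NLS controls.

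The rule used only names, yet the proteins share a trait that can be read from their coding sequence. Codons with T as their middle base stand for phenylalanine, leucine, isoleucine, methionine or valine, the residues from which signal peptides and membrane spans are largely built. Such codons made up a median 35.1% of the coding part of the members (n = 27, PIGX having no complete model with an ATG start), against 26.4% in 13487 protein-coding genes tested at NLS. Each of the 27 had a window of 20 codons with at least 10 of them, as had 66.0% of protein-coding genes. The first 30 codons of 6 members follow, to show 4 of the 5 transamidase subunits, GPAA1 not being shown, beside PIGM and PIGG, the other genes whose effect differed between sites. They are written 5′ to 3′ from the GENCODE 29 transcript (GRCh38) with every T-middle codon in capitals. PIGK starts at base 77219402 of chromosome 1 (minus strand), PIGS at 28571496 of chromosome 17 (minus), PIGT at 45416157 of chromosome 20 (plus), PIGU at 34677085 of chromosome 20 (minus), PIGM at 160031739 of chromosome 1 (minus) and PIGG at 499336 of chromosome 4 (plus).
PIGK: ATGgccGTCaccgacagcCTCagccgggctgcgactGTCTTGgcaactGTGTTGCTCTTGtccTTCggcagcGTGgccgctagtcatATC
PIGS: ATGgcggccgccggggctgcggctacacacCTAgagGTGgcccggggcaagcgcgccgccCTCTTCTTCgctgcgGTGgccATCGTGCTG
PIGT: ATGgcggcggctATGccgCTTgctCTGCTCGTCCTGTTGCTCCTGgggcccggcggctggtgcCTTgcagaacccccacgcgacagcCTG
PIGU: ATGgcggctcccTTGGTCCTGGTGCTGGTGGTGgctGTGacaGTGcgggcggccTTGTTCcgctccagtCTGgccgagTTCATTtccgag
PIGM: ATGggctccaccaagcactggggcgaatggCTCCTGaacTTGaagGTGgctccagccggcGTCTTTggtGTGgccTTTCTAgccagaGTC
PIGG: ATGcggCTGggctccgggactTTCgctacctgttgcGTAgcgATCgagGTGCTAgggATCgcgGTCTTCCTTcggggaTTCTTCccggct
The 30 codons hold 12 capitalised ones in PIGK, 10 in PIGS, 12 in PIGT, 15 in PIGU, 11 in PIGM and 13 in PIGG, against a median of 8 over protein-coding genes. PIGK, higher at OMM, and PIGG, level there, both begin with a run rich in such codons. Across members the share of these codons had a Spearman correlation of 0.11 with the OMM fold change (n = 26) and -0.12 with the NLS fold change (n = 27), given as a description. Without PIGY the values were 0.21 at OMM (n = 25) and -0.03 at NLS (n = 26). Across protein-coding genes they were 0.08 at OMM (n = 12157) and -0.05 at NLS (n = 13487).

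Some features of gene structure ran with the NLS values and others did not. Leaving out PIGY, whose counts are those of PYURF, the NLS log2 fold change had a Spearman correlation across members of 0.44 with total exon length (n = 27), against 0.28 across 13856 protein-coding genes. With the number of annotated transcripts that retain an intron it was 0.41, against 0.12 across those genes, and with the span of the gene it was 0.01, against 0.23. With coding length it was 0.32, against 0.28 across 13506 protein-coding genes, and with the number of exons 0.24, against 0.23. GC content gave 0.25 (n = 26), against 0.09. The OMM values were 0.13 for total exon length and 0.003 for retained introns (n = 26), against 0.24 and -0.09. The points share libraries and annotation depth. PIGC, PIGM, PIGW and PGAP4, whose coding part lies in 1 exon, were all lower at NLS, a grouping noticed after the values were seen. PIGY has its coding part in 1 exon too, but its counts are those of the PYURF transcript, which has 2 exons. With library size alone PIGC, PIGM and PIGW lost their calls. Among protein-coding genes with the coding part in 1 exon 44.2% were lower.

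Some members share exon bases with neighbours, and the strand setting of the counting is not given in the sources used here. In all 16 of the 28 do so, 12 with a gene on the opposite strand. MPPE1 shares 2261 of its 7630 exon bases with GNAL, whose NLS log2 fold change was -0.62. PIGW shares 582 of 2799 with MYO19, at 1.80, and PIGH 558 of 2915 with PLEKHH1, at 1.19. PIGL shares 321 bases with NCOR1 and 258 with CENPV, which was at -0.84. In these 4 pairs with PLEKHH1, GNAL, MYO19 and CENPV, all on the opposite strand, member and neighbour were called in opposite directions at NLS. On the same strand PGAP6 was called in the same direction as MRPL28 (223 bases, neighbour at -1.73) and PIGU as NCOA6 (96 bases, -0.27). PIGY and PYURF have the same counts, so their shared direction was fixed in advance. The part of shared bases in these values was not tested. PIGK shows no such overlap.

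Other genes of the pathway that the naming rule leaves out were taken from a list. Of 7 genes that supply mannose or regulate the early steps, 5 fell at NLS and none rose: ARV1, CLPTM1L, which flips an early intermediate across the ER membrane, DPM3 and MPDU1, which serve the dolichol-linked mannose donor, and PYURF, whose reads are those already counted for PIGY. Over all genes 28.5% were lower, and 39.8% of protein-coding genes. At OMM none of the 7 was called. The p24 cargo receptors TMED2, TMED5, TMED9 and TMED10, which collect anchored proteins for export, all 4 fell at NLS, their median being -1.69 on the log2 scale. TMED10 stood at 73.1 and 69.6 CPM in labelled NLS libraries, against 309 and 301 CPM in controls (-2.09 ± 0.09, edgeR adjusted p = 1.8e-05). At OMM it stood at 525 and 500.5 CPM in labelled libraries, against 255 and 185 CPM in controls, and the 1.22 ± 0.22 did not pass (edgeR adjusted p = 0.11). No p24 gene was called at OMM, where their median was 1.00. In the joint fit all 4 had a higher effect at OMM, with a median difference of 2.83, against 6.73% of all genes called higher and a median of -0.11. Among protein-coding genes 10.5% were called higher there, with a median of 0.40. Of the genes that act later, B3GALT4, which adds a sugar to the side chain, had 31 and 24 counts in labelled NLS libraries, against 0 and 6 counts in controls, and 0 in every OMM library. It passed the low-count filter at NLS through the labelled libraries alone, so its call there is not counted. GPLD1, a phospholipase that cuts anchors, was not called at either site.

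The proteins that carry the anchor were listed as well, and 41 of 70 were tested at NLS. Of these 4 rose and 21 fell, where 28.8% of all genes rose and 28.5% fell (19.4% and 39.8% of protein-coding genes). The list had a median of -0.68 on the log2 scale, against 0.14 for all genes and -0.26 for protein-coding genes. MELTF, also known as melanotransferrin, rose most (2.70 ± 0.41) and RTN4R, a receptor for the axon growth inhibitor Nogo, fell most (-3.06 ± 0.46, edgeR adjusted p = 0.00083 for each). PRNP, the prion protein, fell as well (-1.78 ± 0.15, edgeR adjusted p = 5.1e-05). At OMM GPC4, a glypican, was the 1 gene called of 39 tested, with a list median of 0.70, against 0.139% of all genes called higher and a median of -0.0017. It stood at 154 and 130.4 CPM in labelled OMM libraries, against 24.6 and 28.4 CPM in controls (2.42 ± 0.32, edgeR adjusted p = 0.038). Like PIGK, GPC4 was lower at NLS (-1.57 ± 0.17, edgeR adjusted p = 0.00015) and its effects at the 2 sites differed, by 4.02 ± 0.31 (edgeR adjusted p = 0.0032). In all 6 of 47 listed carriers (12.8%) had a higher effect at OMM and none a lower one, against 6.73% and 1.41% of all genes and 10.5% and 1.49% of protein-coding genes.

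For comparison, N-glycosylation builds another glycan on the same ER membrane. Of its 31 listed genes 5 rose and 18 fell at NLS (median -0.71), where 28.8% of all genes rose and 28.5% fell. At OMM 1 of 31, STT3B, a catalytic subunit of oligosaccharyltransferase, was called (1.53 ± 0.20, edgeR adjusted p = 0.038), with a median of 0.43 against 0.38 for the GPI genes. In the joint fit 10 of 31 had a higher effect at OMM, where 6.73% of all genes and 10.5% of protein-coding genes did. T-middle codons made up a median 37.0% of these genes, near the 35.1% of the GPI genes.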

How the data were processed

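The authors deposited whole-number read counts per gene for 8 libraries of human HEK293T cells, 2 per group. The submitters' processing notes name Trimmomatic, DESeq2, STAR, HTSeq, bedtools and SAMtools, with hg38 and GRCh38.p13 as builds. The sources used here give no versions, annotation release or strand setting. The authors deposited a log2 fold change (labelled over control), set here beside fits for 41020 genes at NLS and 19296 at OMM. The deposited p-value proved to be an adjusted one: with DESeq2 1.42.0, fold changes came within 0.01 of the deposited ones for 100% of these genes, and adjusted p within 1% for 100% of NLS and 99.99% of OMM genes. Columns were given to a group by the site and arm in their names. Libraries are called by the numbers there, 1 and 3 at NLS, 2 and 3 for labelled OMM and 3 and 4 for OMM control, which differ from those in the sample titles. Another 4 count columns and 2 comparison columns matched no sample and were not used. The series text names Proteinase K release for NLS and TRIzol for OMM, and the OMM sample titles also read trizol. Other sample labels name an RNeasy kit, and the 2 accounts could not be reconciled.

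The test was that of edgeR 4.0.16 under R 4.3.3 (robust quasi-likelihood F test, TMM scaling, filterByExpr with a minimum count of 10, two-sided, Benjamini-Hochberg over all genes kept, threshold 0.05). NLS and OMM were fitted apart, and the difference between sites was an interaction contrast over all 8 libraries. That joint fit used the same spread per gene for both sites. Dividing the absolute log2 fold change by the root of F gave the SE. CPM values carry the TMM factors. The fits were tested on simulated counts. No pair of libraries in a group agreed within sampling noise (chi-square per degree of freedom 4.98 to 229). A count of 0 was read against a floor of 3 counts, which covers counting error only. Every member is accounted for. Of the other lists, the 3 highest and 3 lowest called genes could be named, with PYURF. The further genes named there were chosen after their values were seen. Members, lists and tests were chosen with earlier results of these data known. Exon lengths, coordinates and coding sequence come from GENCODE 29 (GRCh38), in which PGAP4 is TMEM246 and PGAP6 is TMEM8A, matched by identifier. Protein sequences were not analysed here. Alternatives were DESeq2, RLE scaling, library size alone, other low-count filters, a non-robust fit, a replicate block at NLS and leaving out each library.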

Additional observations from a re-analysis of the deposited data

Results flagged for a closer look

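The difference in labelling effect between the sites, OMM minus NLS, passed the test of the difference itself for 3 members. That joint fit assumed the same spread per gene at both sites, though it was wider at OMM. Over all 23178 genes in that fit 6.73% were higher and 1.41% lower, and over protein-coding genes 10.5% and 1.49%. The difference was 3.92 for PIGK, whose labelled libraries were above controls at OMM and below them at NLS. It was 1.69 for PIGM, with the same order of groups. It was -1.38 for PIGG, whose labelled libraries were above controls at NLS and overlapped them at OMM. The calls of PIGM and PIGG were lost in most fits that left out a library. That of PIGM was also lost with RLE scaling or library size alone. PIGK lost its call with either NLS control left out. Site, kit and RNA selection coincide in these libraries and their parts in the 3 differences cannot be told apart.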

How the results depend on the processing

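At NLS, library size alone in place of TMM gave 13 members higher and 3 lower, and 9122 genes higher and 3351 lower in all. The median of the members turned to 0.41, GPAA1 to 0.025 and PIGT to 0.50 under that scaling. A minimum mean of 100 counts left 7 members lower and turned their median to 0.024. Leaving out each NLS library in turn gave 6 to 12 members lower and 3077 to 8425 genes higher. The same-numbered NLS libraries did not deviate together (r = -0.022 across 20858 genes). No shared effect was thus seen, which cannot tell whether the numbers stand for paired cultures. With the number as a replicate block, 1 member lost its call, PIGP (adjusted p 0.051). No paired analysis was possible for OMM because its arms share 1 number only.

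At OMM, members higher numbered 3 in DESeq2 and 0 in the non-robust fit. Genes higher and lower were 1000 and 873 in DESeq2, 48 and 16 with library size alone, 43 and 22 with a minimum mean of 100 counts, 321 and 145 with no low-count filter, and 1 and 0 in the non-robust fit. Leaving out each OMM library gave 128 to 335 higher and 76 to 279 lower, where 20 and 8 were called on all 4. The lone library left in an arm is then assumed to vary like the others. Counts over all genes at OMM therefore limit what can be read there. PIGK was called in each of these fits but the non-robust one, and the fits without a library were more permissive than the main fit.

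For the difference between sites, members higher numbered 1 with RLE scaling and 1 with library size alone, with 626 and 584 genes higher in all. Leaving out each library gave 0 to 4 members higher, 0 to 1 lower, 0 to 2748 genes higher and 0 to 1454 lower. No gene of the table was called without NLS control 1 or without NLS control 3. The cause was not tested.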
